A study of Vitis rotundifolia with 18 samples.

Results

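Mature berries of muscadine grape (Vitis rotundifolia) carrying the cultivar label Noble were compared with mature berries carrying the label Carlos. The comparison uses the 6 of 18 RNA-seq libraries whose labels give stage E-L 38 of the Eichhorn-Lorenz scale of grapevine growth, which is berry maturity, with 3 libraries under each cultivar label. Noble is a dark-skinned muscadine and Carlos a bronze one. The other 12 libraries are berries of the same cultivars at E-L 32, bunch closure, and at E-L 35, veraison, the onset of ripening, with 3 libraries for each cultivar and stage. All berries came from 1 research vineyard planting described in the labels, no treatment is given for any group, and no label says whether replicates came from separate vines. The p-values below therefore measure the spread between these libraries, part of which may be technical.

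Grape skins darken when anthocyanins accumulate in them from veraison onward. Anthocyanins are made by the flavonoid pathway, whose early enzymes are shared with the proanthocyanidins (tannins) and the flavonols, and whose last steps add a sugar that makes the pigment stable. UFGT, the flavonoid glucosyltransferase that adds this sugar, is the step best known for separating coloured from white berries in Vitis vinifera, where MYB regulators of the MYBA group switch it on. The flavonoid 3',5'-hydroxylases direct the pathway towards blue and purple anthocyanins, and the 3'-hydroxylases towards red ones.

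The values are expected counts per gene, that is, reads shared out among the genes they could have come from. The libraries labelled Noble held 21767325, 25273689 and 26109619 expected counts, and the libraries labelled Carlos held 26125521, 23821536 and 26855807. Levels are given as CPM, counts per 1e6 counts of a library after TMM scaling, which are not corrected for gene length, and differences are log2 of the Noble-labelled over the Carlos-labelled level, with their standard error. A gene is called when edgeR's quasi-likelihood test gives an adjusted p under 0.05 over the 17657 genes tested (Benjamini-Hochberg), in 1 fit to all 18 libraries.

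Label differences at maturity and at the earlier stages disagreed in direction across many genes. VIT_04s0008g04060 had 256, 175 and 177 CPM in the Noble libraries of E-L 32 and 1359, 886 and 1291 CPM in those of E-L 35, and between 0 and 0.550 CPM in every Carlos library of those stages. At E-L 38 the libraries labelled Noble had 0, 0 and 2.79 CPM, and those labelled Carlos had 1623, 1561 and 1118 CPM. The gene thus followed Noble at the first stages and the Carlos label at the last one. It was picked as an example, and lack of overlap between the groups at each stage was a condition of its choice. It is also among the genes higher in Noble that are counted in the next paragraph. Its expected counts were not whole in 10 of 18 libraries, so it shares reads with other genes. Which stage, if any, carries the interchanged labels cannot be told apart from these data, and no library was moved to another group. "Labelled Noble" and "labelled Carlos" are used throughout for the mature libraries, and each direction below refers to the label.

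The same was seen across genes that separated the cultivars at both earlier stages. Such genes were chosen by the cultivar differences at E-L 32 and E-L 35. They were called at both stages in the same direction, at least 4-fold apart at each and without overlap between the cultivars. The calls came from the fit to all 18 libraries, so the mature libraries entered its filter, scaling and estimate of spread. There were 72 such genes higher in Noble. At E-L 38, 58 of them (80.6%) were called higher under the Carlos label, 0 were called higher under the Noble label and 14 were not called, against 12% of all tested genes called higher under the Carlos label and 11.4% under the Noble label. Their median log2 difference was 3.98 at bunch closure, 3.75 at veraison and -3.48 at maturity, and 71 of the 72 had a negative value at E-L 38. There were 54 genes higher in Carlos at both earlier stages. Of these, 43 (79.6%) were called higher under the Noble label at E-L 38, 0 under the Carlos label and 11 were not called, with a median log2 difference of 3.85 against -4.48 at E-L 32 and -3.92 at E-L 35. The median over all tested genes at E-L 38 was -0.00. When the choice and the E-L 38 test came from fits that shared no library, 80 of 122 chosen genes were called in the opposite direction and 0 in the same one.

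**Figure D1:**
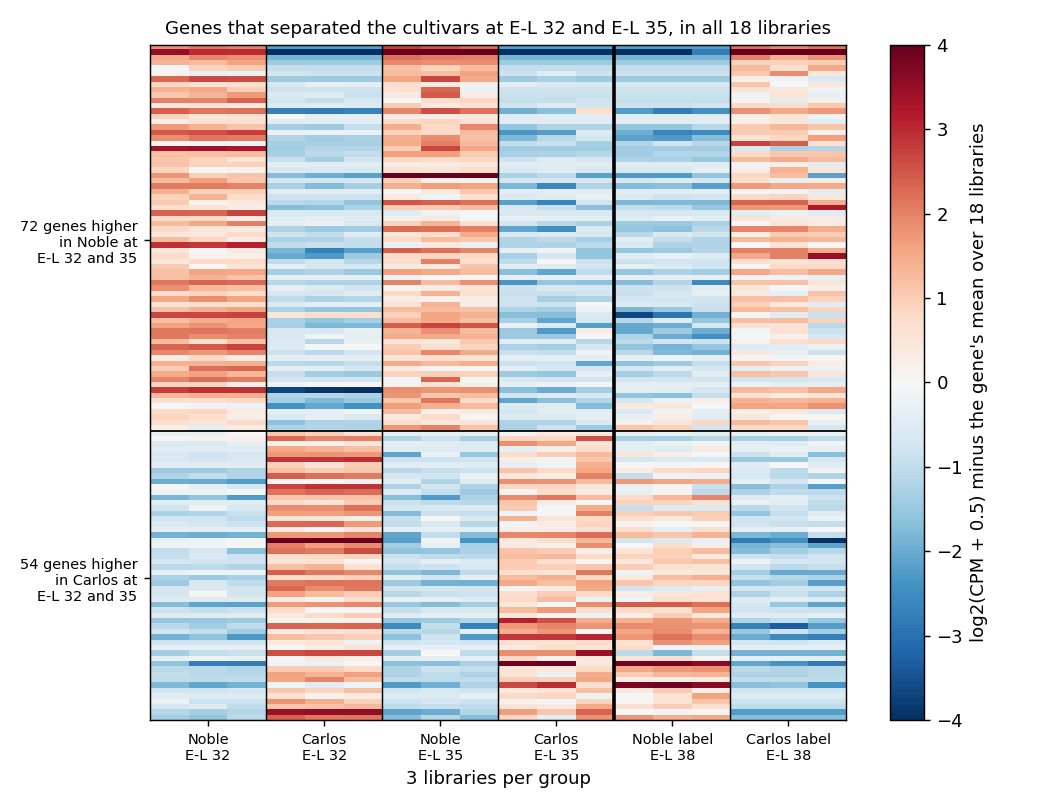
Heat map of the 126 genes that separated the cultivars at both E-L 32 and E-L 35 (rows) in all 18 libraries (columns), coloured by log2(CPM + 0.5) less the gene's mean over the libraries, with the colour scale limited to 4 either way. Of the 72 genes high in Noble at the earlier stages, 58 were called higher in the Carlos-labelled libraries of E-L 38 and 14 were not called. Of the 54 genes high in Carlos, 43 were called higher in the Noble-labelled ones and 11 were not called.

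All 6 mature libraries showed this pattern one by one. Each library's log2(CPM + 0.5) for a gene was set against the gene's mean in earlier Noble and its mean in earlier Carlos libraries. The Noble-labelled libraries lay nearer the earlier Carlos mean for 69, 66 and 69 of the 72 genes, and for 35, 37 and 37 of the 54 genes. The Carlos-labelled libraries lay nearer the earlier Noble mean for 54, 54 and 44 of the 72 genes, and for 54, 54 and 53 of the 54.

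Presence or absence of transcripts was read in a stricter choice. All the genes it gave are among those counted above, so they are not a separate observation. In the 12 earlier libraries, 3 genes were at 0 counts in all 6 Carlos libraries and at 1 CPM or more in all 6 Noble libraries. These were VIT_10s0092g00370, VIT_14s0030g00180 and VIT_18s0041g02440, and at E-L 38 all 3 had 0 counts in every library labelled Noble. Under the Carlos label they had 1.94 to 2.14 CPM, 4.36 to 6.84 CPM and 8.23 to 10.2 CPM respectively. Against a floor of 3 counts over the Noble-labelled group, these levels are at least 45.7-fold, 128-fold and 214-fold higher under the Carlos label. The reverse criterion gave 1 gene, VIT_15s0024g01760, at 0 in all 6 earlier Noble libraries. At E-L 38 it had 0.705, 0.688 and 0.738 CPM under the Noble label and 0 counts in every library under the Carlos label, at least 16.8-fold higher under the Noble label.

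Over the whole transcriptome, 4130 genes (23.4% of those tested) were called between the labels at maturity, 2013 higher under the Noble label (11.4%) and 2117 higher under the Carlos label (12%). At least 2-fold differences were found for 1033 and 1091 of them, at least 4-fold for 569 and 518, and at least 16-fold for 199 and 141. The 3 libraries of one label lay wholly above the 3 of the other for 7377 genes (41.8%), with the Noble label above for 21.1% and the Carlos label above for 20.7% of tested genes, and 3993 genes were both called and without overlap. The count moved with the earlier libraries in the fit. Without 3 libraries that stood apart from their own groups (Noble replicate 1 at E-L 32, Noble replicate 2 and Carlos replicate 3 at E-L 35), 6671 genes were called, 3338 and 3333 in the 2 directions, and a fit to the 6 mature libraries alone called 3883 of 15499 genes (25.1%).

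Directions at maturity were set beside those at each earlier stage, which share no library with it. Noble and Carlos differed in 27.5% of tested genes at bunch closure and in 19% at veraison. Of 1815 genes called at both E-L 38 and E-L 35, 1761 (97%) had opposite directions and 54 the same. Of 1672 genes called at both E-L 38 and E-L 32, 1265 (75.7%) had opposite directions and 407 the same. Between E-L 32 and E-L 35 the order was the other way, with 1039 of 1384 genes (75.1%) in the same direction. Across the tested genes, Pearson's r of the log2 differences at maturity was -0.55 with those at veraison and -0.13 with those at bunch closure, and r between the earlier stages was 0.20. These are descriptions across genes, which are not independent replicates. A test of the difference itself, the label difference at E-L 38 less the mean difference at the earlier stages, called 6086 genes (34.5%); it was added after the data were seen, and it favours opposite signs by its construction.

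**Figure D2:**
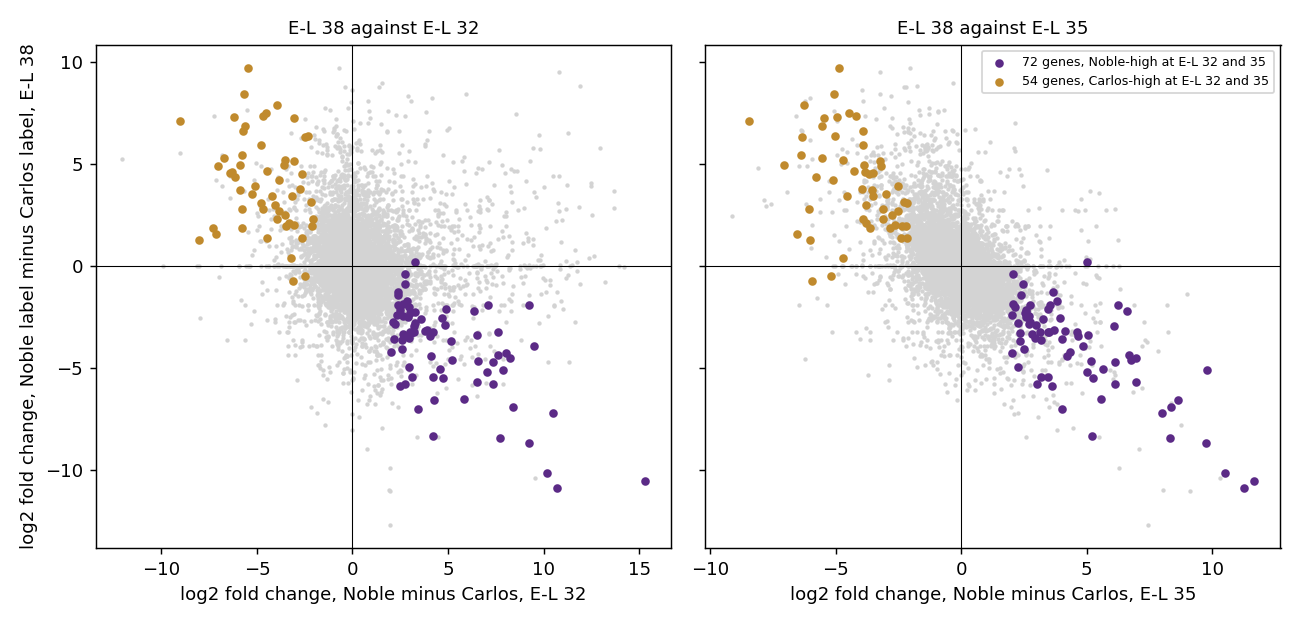
Log2 difference between the labels at E-L 38 (vertical axis) against the log2 difference between Noble and Carlos at E-L 32 and at E-L 35 (horizontal axes), 1 point per tested gene. Light grey points are all tested genes, and coloured points are the genes chosen for separating the cultivars at both earlier stages. Genes called at E-L 38 and at the earlier stage are not marked. Of these, 1265 of 1672 against E-L 32 and 1761 of 1815 against E-L 35 had opposite signs.

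Whole libraries were compared in the same way, as a description. On log2(CPM + 0.5) over the tested genes, the Noble-labelled libraries correlated at 0.967 to 0.972 with Carlos replicates 1 and 2 of E-L 35, and at 0.939 to 0.954 with the Noble libraries of that stage. Carlos-labelled replicates 1 and 2 correlated at 0.952 to 0.976 with the Noble libraries of E-L 35 and at 0.952 to 0.953 with Carlos replicates 1 and 2. For Carlos-labelled replicate 3 these values were 0.925 to 0.953 and 0.934 to 0.935. Both pairs of ranges overlapped only through Noble replicate 2 of E-L 35, which stood apart. With Noble replicates 1 and 3 of that stage, Carlos-labelled replicates 1 and 2 had 0.97 to 0.976. Carlos-labelled replicate 3 had 0.948 to 0.953 with them. Carlos-labelled replicate 3 stood apart from its own group: 142 genes differed at least 4-fold from the mean of its replicates, against 8 and 13 for the others, and 5, 2 and 39 for the Noble-labelled libraries. Carlos replicate 3 of E-L 35, which stood apart, correlated at 0.906 to 0.914 with the Noble-labelled libraries, below each of their values with the Noble libraries of that stage, and at 0.855 to 0.881 with the Carlos-labelled ones. At E-L 32 both labels correlated more with Noble than with Carlos. The Noble-labelled libraries had 0.813 to 0.856 against 0.798 to 0.808, and the Carlos-labelled ones 0.781 to 0.846 against 0.759 to 0.781. Correlations with bunch closure thus did not separate the labels.

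UFGT (VIT_16s0039g02230), the pigment step given for this comparison, was abundant under both labels and was not called. It had 610, 670 and 643 CPM in the libraries labelled Noble (641 ± 30.3, SD, n = 3) and 633, 622 and 877 CPM in those labelled Carlos (711 ± 144, SD, n = 3), so the groups overlapped. The log2 difference was -0.15 ± 1.25 (SE), with an adjusted p of 0.96 by edgeR, and -0.14 ± 0.14 with an adjusted p of 0.53 in the fit to the 6 mature libraries alone, where the spread of the earlier libraries does not enter. Without Carlos-labelled replicate 3 the sign turned to 0.05. In TPM, the deposited scale per gene length, the means were 511 and 562. A difference between the labels was therefore not detected in this transcript, in a design of 3 libraries each.

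UFGT rose from E-L 32 to E-L 35 over both cultivars (adjusted p = 0.00027, edgeR). At E-L 32 it stood at 36.2, 1.95 and 0.514 CPM in Noble and at 2.09, 2.40 and 2.11 CPM in Carlos. At E-L 35 it stood at 333, 381 and 326 CPM in Noble and at 519, 480 and 0.746 CPM in Carlos. The value of 36.2 belongs to Noble replicate 1 of E-L 32 and that of 0.746 to Carlos replicate 3 of E-L 35, both among the libraries that stood apart. Neither earlier difference was called, with adjusted p of 0.20 at E-L 32 and 0.98 at E-L 35 by edgeR.

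**Figure D3:**
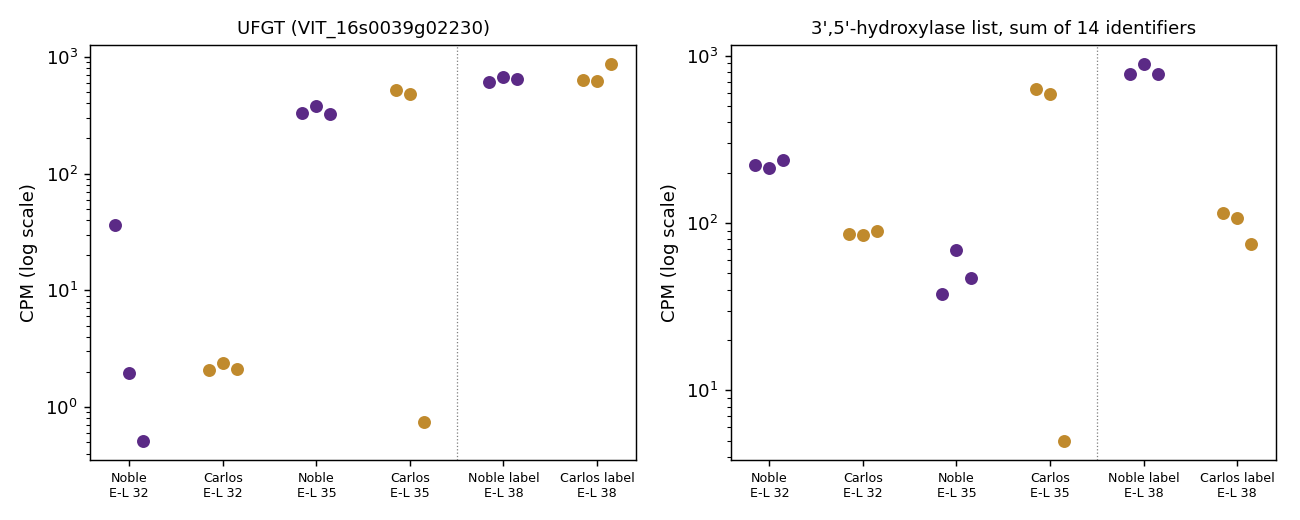
CPM on a log scale of UFGT (left) and summed CPM of the 14 identifiers of the flavonoid 3',5'-hydroxylase list (right), 1 point per library, grouped by cultivar and stage. UFGT overlaps between the labels at E-L 38 (610 to 877 CPM in all 6 libraries), while the hydroxylase sum is 774 to 898 CPM under the Noble label and 75.2 to 114 CPM under the Carlos label.

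The rest of the pathway was followed with 10 lists of 101 identifiers, of which 98 are in the files and 72 were tested. The identifiers were written from general knowledge of the Vitis vinifera gene catalogue, and no file used here pairs them with names, so the lists are described by counts and ranges and their members are not named. In all, 14 of the 72 were called higher under the Noble label and 10 under the Carlos label, against 11.4% and 12% of all tested genes.

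In the early and late pigment steps the shares of called genes, 2 of 8 and 1 of 6, lay near the 23.4% of all tested genes. Of 8 genes of the core flavonoid list (chalcone synthase to leucoanthocyanidin dioxygenase, the trunk of the pathway), 2 were called higher under the Noble label, at 889 against 338 CPM (log2 difference 1.39) and 561 against 366 CPM (0.62). The list median was 0.30, and the fit to the mature libraries alone also called another member (0.54, adjusted p = 0.015, edgeR). Of 6 tested genes of the late anthocyanin list (glycosylation, methylation, acylation and vacuolar transport, with UFGT among them), 1 was called, at 13.1 against 23.1 CPM and higher under the Carlos label, and the median was -0.10. That call was lost without Noble-labelled replicate 1 or Carlos-labelled replicate 3. The fit to the mature libraries alone called another member higher under the Noble label, at 839 against 491 CPM without overlap (0.79, adjusted p = 0.0051). None of 3 MYBA-list genes and none of 2 genes of the 3'-hydroxylase list was called. The MYBA genes had group means of 100 to 563 CPM under the Noble label and 70.0 to 302 CPM under the Carlos label (log2 differences 0.45 to 0.90). In the fit to the mature libraries alone 2 of the 3 were called higher under the Noble label. Their adjusted p by edgeR was 0.0042 and, rounded, 0.05, so 1 call was borderline. Expected counts of the 3 were not whole in 14 to 16 of 18 libraries, so they are not 3 independent observations. Both 3'-hydroxylase identifiers were called higher under the Noble label without Carlos-labelled replicate 3. Their expected counts were not whole in 18 of 18 libraries.

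The 3',5'-hydroxylase list had far higher levels under the Noble label. Its 14 identifiers in the files summed to 774, 898 and 775 CPM in the libraries labelled Noble and to 114, 106 and 75.2 CPM in those labelled Carlos. The median log2 difference over the 8 tested members was 3.02. Of the 8, 6 were called, all higher under the Noble label, against 11.4% of all tested genes. The 6 had log2 differences of 2.95 to 3.42 and adjusted p of 0.0054 to 0.023 by edgeR. These 6 have expected counts that are not whole, that is, they share reads with other genes, so they are not 6 independent observations. At E-L 35 the sum was 37.8, 68.9 and 47.0 CPM in Noble and 630, 589 and 4.99 CPM in Carlos, where the low value is the replicate that stood apart, and the same 6 members were called higher in Carlos. At E-L 32 the sum was 214 to 239 CPM in Noble and 85.0 to 89.9 CPM in Carlos, and 0 of the 6 were called. Most of that gap came from 1 member outside the 6, at 98.6, 104 and 118 CPM in Noble and 0.993 to 1.26 CPM in Carlos at E-L 32, and at 0 to 0.134 CPM in all mature libraries. The count fell to 1 of 8 without Carlos-labelled replicate 2 or without replicate 3, to 3 without Noble-labelled replicate 2 and to 2 with limma-voom, while the fit to the mature libraries alone called 6, and 8 members were called higher under the Noble label without the 3 earlier libraries that stood apart.

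Among branches that leave the pathway before the pigments, the proanthocyanidin list held reductases that make flavan-3-ols and their MYB regulators. All 3 tested members were called, against 23.4% of all tested genes. The 2 higher under the Noble label stood at 190 against 13.5 CPM (log2 difference 3.81, adjusted p = 2.7e-06) and at 52.7 against 2.89 CPM (4.19, adjusted p = 4.1e-05). The one higher under the Carlos label stood at 0.764 against 5.65 CPM (-2.86, adjusted p = 0.00011). All 3 were called with the opposite sign at E-L 35. At E-L 32 the first of them was called in the same direction as at E-L 38 (1.22, adjusted p = 0.0053), and the other two were not called. Both genes of the flavonol list were called, against 23.4% of all tested genes. They went 1 in each direction, at levels of 1.28 CPM or less. The call under the Carlos label was lost under several alternatives. That gene was not tested in the fit to the mature libraries alone.

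Stilbenes, the phytoalexins of grape that include resveratrol, were followed with a list of 49 stilbene synthase identifiers and 2 regulators. Of 30 synthase identifiers tested, 7 were called higher under the Carlos label, against 12% of all tested genes. The Noble label had 0, against 11.4%, and the list median was -1.27. The sum over all 49 was 52.5, 81.4 and 67.2 CPM under the Noble label and 84.3, 86.8 and 231 CPM under the Carlos label. The groups thus did not overlap, as for 41.8% of single tested genes, but Carlos-labelled replicate 3 stood far above the others. The count of calls was 2 without that replicate, 2 without Noble-labelled replicate 3 and 3 without Noble-labelled replicate 1, but 13 without the 3 earlier libraries that stood apart. All 30 share reads with other genes, which makes each single value uncertain. The 2 regulators were not called, with log2 differences of -0.55 and -0.40.

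Of 8 tested genes of a ripening list (transcription factors, sugar transport and cell wall genes known from veraison), 3 were called higher under the Noble label, at 36.6 to 48.5 against 12.8 to 28.3 CPM (log2 differences 0.78 to 1.60), against 11.4% of all tested genes, and the median was 0.77. The fit to the mature libraries alone called 5 higher under the Noble label and 1 under the Carlos label, and limma-voom 3 and 1.

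**Figure D4:**
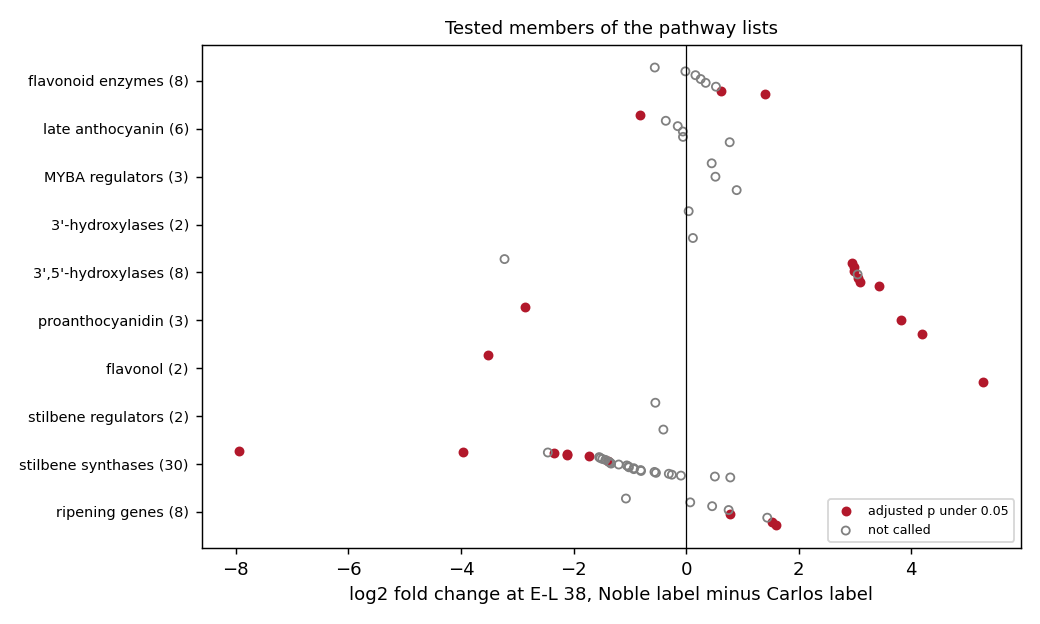
Log2 difference between the labels at E-L 38 for each tested member of the 10 lists, 1 point per identifier, red where called by edgeR and open grey where not. The 3',5'-hydroxylase list has 6 called members between 2.95 and 3.42, the stilbene synthase list has 7 called members below 0, and the MYBA and 3'-hydroxylase lists have none called. Of all tested genes, 23.4% were called. These calls are from the fit to all 18 libraries. The fit to the mature libraries alone also called MYBA genes, and fewer stilbene synthase calls remained without Carlos-labelled replicate 3.

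Ripening itself was set beside the label difference through the genes that changed from E-L 32 to E-L 35 over both cultivars, a step that called 62.6% of tested genes. Of 964 genes that rose at least 4-fold over that step, 130 (13.5%) were called higher under the Noble label and 212 (22%) under the Carlos label at E-L 38, with a median of -0.37. Of 1760 genes that fell at least 4-fold, 221 (12.6%) were called higher under the Noble label and 101 (5.74%) under the Carlos label, with a median of 0.07. Over all tested genes the shares were 11.4% and 12%, and the shares of the sets were not tested against them. Whether the berries under the 2 labels were at the same ripeness was not tested.

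Among genes of at least 10 CPM under 1 label, those with the highest fold differences came close to presence or absence. Under the Carlos label, VIT_06s0004g05400 had 3798, 4551 and 8077 counts, against 0, 0 and 2 under the Noble label, a ratio of 7826 with a counting interval of 2166 to 64618. VIT_06s0004g05320 had 1067, 1412 and 2522 counts against 0, 0 and 2, a ratio of 2385 (660 to 19692), and VIT_06s0004g05330 had 3160, 2412 and 3979 counts against 0, 0 and 4 (log2 difference -11.03 ± 1.06). Without Noble-labelled replicate 3, which held all the counts of its group, the 3 were at least 3332-fold, 1015-fold and 1928-fold higher under the Carlos label. Their expected counts were not whole in 12 to 14 of 18 libraries, so reads are shared among genes and the 3 values are not independent. All 3 were higher in Noble at E-L 35, by 7.43 to 9.10 on the log2 scale.

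VIT_04s0008g04060, described above, differed by -10.53 ± 1.17 (adjusted p = 4.9e-05, edgeR), with 0, 0 and 68 counts under the Noble label against 40076, 35073 and 26620. Without Noble-labelled replicate 3 it was at least 20600-fold higher under the Carlos label, and without replicate 2 the log2 difference was -9.93. VIT_05s0049g00760 had 0, 1 and 27 counts under the Noble label and 11841, 9826 and 18064 under the Carlos label (-10.41 ± 1.73, adjusted p = 0.00059), and without Noble-labelled replicate 3 the ratio was 24080 (4321 to 951000). It too was high in Noble at E-L 35, with 484, 497 and 443 CPM against 0.314, 0.530 and 0.280 CPM in Carlos.

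Under the Noble label the largest fold difference among genes of at least 10 CPM was that of VIT_09s0002g04850, with 245, 255 and 475 counts against 0, 1 and 0, a ratio of 1012 (182 to 39972). Without Carlos-labelled replicate 2 it was at least 230.5-fold higher under the Noble label, and limma-voom did not call it (adjusted p = 0.086). This gene did not keep 1 direction earlier, being higher in Noble at E-L 32 (10.78) and higher in Carlos at E-L 35 (-3.25). VIT_10s0071g01200 had 35.9, 38.8 and 31.2 CPM under the Noble label and 0.324, 0.356 and 0 CPM under the Carlos label (7.26 ± 0.77, adjusted p = 1.7e-05). It was higher in Carlos at both earlier stages (-3.08 and -5.49). VIT_13s0084g00090 had 30.5, 24.7 and 29.2 CPM against 0.202, 0.223 and 0.210 CPM (7.02 ± 0.63, adjusted p = 4.9e-06), and its low level was seen in no earlier library, where it ranged from 4.56 to 48.3 CPM.

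VIT_19s0015g00540 (33.0 against 0.0688 CPM, 8.78 ± 2.19) and VIT_03s0038g02030 (52.5 against 0.433 CPM, 6.90 ± 1.58) were also among the 5 highest. Both varied widely within E-L 35, where Carlos replicate 3 had 445 and 1006 CPM and the other Carlos libraries at most 5.07 and 22.0 CPM. Limma-voom called neither, with adjusted p of 0.32 and 0.25. Without Carlos-labelled replicate 1 their log2 differences were 10.28 and 7.75, the former with a single count left under the Carlos label, a ratio of 1529 (274 to 60390).

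Among the most abundant genes, differences were mostly of moderate size. VIT_06s0004g04510 had 5003, 4769 and 4739 CPM under the Noble label and 3156, 3015 and 2537 CPM under the Carlos label (0.74 ± 0.14, adjusted p = 0.0019). VIT_04s0008g04020 had 4786, 5511 and 5436 CPM against 1552, 1551 and 2510 CPM (1.49 ± 0.18, adjusted p = 4.2e-05), and was higher in Carlos at E-L 32 (-1.95) and at E-L 35 (-1.52). VIT_05s0020g00670 had 1141, 1241 and 1337 CPM against 2466, 2502 and 2084 CPM (-0.92 ± 0.20, adjusted p = 0.0039). Lack of overlap between the groups was a condition for choosing these 3 genes, so it is no result. Expected counts of VIT_04s0008g04020 were not whole in 18 of 18 libraries, so it shares reads with other genes.

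Other abundant calls were lost when single libraries were left out, although all 3 genes were called in the fit to the 6 mature libraries alone (adjusted p of 0.0015 to 0.021). VIT_03s0063g01290 had 652, 646 and 99.8 CPM under the Noble label and 8676, 8249 and 18960 CPM under the Carlos label (-4.68 ± 1.40, adjusted p = 0.025). The call was lost without any Noble-labelled replicate or without Carlos-labelled replicate 3, with adjusted p of 0.059 to 0.085 and log2 differences of -5.00 to -4.17. VIT_07s0005g03420 had 7356, 6636 and 7704 CPM against 617, 633 and 171 CPM (3.93 ± 1.10, adjusted p = 0.018), and without Carlos-labelled replicate 3 the adjusted p was 0.067 and the log2 difference 3.55. In the earlier libraries it ranged from 0 CPM in Carlos at E-L 32 to 114700 CPM in Carlos replicate 3 of E-L 35. Expected counts were not whole in 17 of 18 libraries for VIT_03s0063g01290 and in 16 for VIT_07s0005g03420, so both share reads with other genes. VIT_18s0072g00380 averaged 2545 against 4563 CPM (-0.84 ± 0.26, adjusted p = 0.028), and lost its call without Noble-labelled replicate 1 or 3 or Carlos-labelled replicate 2 or 3 (adjusted p of 0.078 to 0.12, log2 differences of -0.79 to -0.66).

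Among the genes that separated the cultivars earlier, those with the highest earlier levels show the sizes involved. VIT_05s0049g00010 averaged 20.6 ± 2.45 CPM under the Noble label and 76.4 ± 9.36 CPM under the Carlos label (SD, n = 3), a log2 difference of -1.89 ± 0.15 (adjusted p = 2.1e-06). It had been 7.09 at E-L 32 and 3.52 at E-L 35. VIT_03s0091g01050 (-1.87, 13.4 against 49.1 CPM) and VIT_07s0104g00410 (-2.14, 10.6 against 46.8 CPM) were higher in Noble by 2.66 and 2.51 at E-L 32 and by 2.07 and 2.58 at E-L 35.

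In the other direction, VIT_06s0004g07770 had 234, 230 and 198 CPM under the Noble label and 3.36, 2.63 and 1.76 CPM under the Carlos label (6.41 ± 0.73, adjusted p = 3.1e-05). At E-L 35 it had 233, 245 and 20.7 CPM in Carlos and 4.65, 4.52 and 6.11 CPM in Noble. VIT_05s0020g03770 had 38.4, 36.8 and 36.4 CPM against 1.13, 0.579 and 1.81 CPM (4.97 ± 0.47, adjusted p = 7.7e-06), after 52.8, 51.9 and 52.3 CPM in Carlos and 4.57, 3.54 and 4.79 CPM in Noble at E-L 32. VIT_05s0049g00040 (81.1 against 20.8 CPM, 1.97) and VIT_08s0040g01230 (5.80 against 0.684 CPM, 3.09, and 3.69 without Carlos-labelled replicate 2) were also higher under the Noble label after being higher in Carlos at both earlier stages.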

How the data were processed

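RNA was sequenced from berries, with directional libraries per the labels' protocols. Expected counts and TPM per gene were deposited by the authors, 1 file per library. The submitters' processing notes name STAR 2.7.6a and RSEM 1.3.3. The sources used here do not give the genome build, the annotation or the strand setting. Groups come from the cultivar and stage labels, and no batch is labelled. Expected counts were rounded. For 2667 genes they are not whole in at least 1 library, which marks shared reads. edgeR 4.0.16 (R 4.3.3, limma 3.58.1) was used with filterByExpr and TMM scaling, fitting 6 groups without a replicate block. TPM served only for the length-scaled level of UFGT. DESeq2 1.42.0, limma-voom, other scalings, a replicate block, no filter, other thresholds and each library left out were tried, and the fits were tested on simulated data. The test of the E-L 38 difference against the earlier ones was added after the data were seen.

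Members, lists and tests were chosen with earlier results of these data known. The genes named are UFGT; the 5 highest and 5 lowest called fold differences among genes of at least 10 CPM in 1 group without overlap; the 3 most abundant such genes per label; and the 4 most abundant of each set that separated the cultivars earlier. None of the 27228 identifiers matched the 27334 genes of the reference table, so no other gene is named, no coordinates or sequences are shown, and no cell type markers could be checked. Intervals (95%, exact Poisson) and floors (3 counts over the group) cover counting error only. Replicates of a label differed beyond sampling noise (lowest chi-square over its degrees of freedom 9.06).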

Additional observations from a re-analysis of the deposited data

Results flagged for a closer look

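For 21 of the 24 named genes the label difference at E-L 38 differed from the mean of the differences at E-L 32 and E-L 35, by an edgeR test of that difference with an adjusted p under 0.05. Most of these genes were chosen by values that enter this test, so their number is no result. The values below are the E-L 38 difference less the earlier mean, on the log2 scale. Values of genes at or near 0 in a group depend on the prior count of the fit and are not bounds. The limit of shared reads given above for single genes applies here too.

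Among genes higher under the Carlos label at E-L 38, it was -24.0 for VIT_04s0008g04060 and -20.3 for VIT_05s0049g00760. It was -17.4 for VIT_06s0004g05400, -16.6 for VIT_06s0004g05330 and -16.0 for VIT_06s0004g05320, which share reads with other genes. It was -11.1 for VIT_03s0063g01290, -7.19 for VIT_05s0049g00010, -4.68 for VIT_07s0104g00410 and -4.24 for VIT_03s0091g01050. The smallest were -1.71 for VIT_18s0072g00380 and -1.32 for VIT_05s0020g00670.

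Among genes higher under the Noble label, it was 11.5 for VIT_10s0071g01200, 10.1 for VIT_06s0004g07770, 9.19 for VIT_19s0015g00540 and 8.74 for VIT_03s0038g02030. It was 8.72 for VIT_05s0020g03770, 7.63 for VIT_13s0084g00090 and 6.58 for VIT_08s0040g01230. It was 4.20 for VIT_05s0049g00040, 3.22 for VIT_04s0008g04020 and 1.09 for VIT_06s0004g04510. UFGT, at -1.45 with an adjusted p of 0.52, VIT_07s0005g03420 and VIT_09s0002g04850 did not pass this test.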

How the results depend on the processing

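The count of 4130 called genes was 4173 and 4148 under other scalings (relative log expression and upper quartile), 3895 without the filter, 3939 with limma-voom and 4964 with DESeq2. With 1 mature library left out it ranged from 2992 to 3454, with 1524 to 1746 higher under the Noble label and 1458 to 1785 under the Carlos label. Genes called against their earlier direction numbered 91 to 99, with 0 called alike in each case. The genes that separated the cultivars earlier were chosen again in each of these fits. Replicate numbers did not pair the libraries (correlations of same-numbered deviations 0.045, 0.083 and 0.012), and the fit with a replicate block called 3777.

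Without the 3 libraries that stood apart earlier, 6671 genes were called (3338 and 3333), 4 of the genes that separated the cultivars earlier were called alike, and the genes that rose from E-L 32 to E-L 35 gave 237 and 411 calls (higher under the Noble and the Carlos label) and those that fell 455 and 215. Choosing these genes at 2-fold gave 232 and 455, and 473 and 253. The 6 mature libraries alone gave 67 in place of 101 genes that fell and were higher under the Carlos label. Genes called against their earlier direction were 62 with whole counts only, 222 at a 2-fold choice (1 alike) and 31 at a 16-fold choice. Each of these settings, and the one without the 3 earlier libraries, chose its own set of genes. The sets can differ in size, so these counts are not shares of 1 set. With 1 mature library left out, the genes that rose gave 90 to 107 and 144 to 189 calls, and those that fell 164 to 194 and 72 to 98. UFGT ranged from -0.22 to 0.05 and reversed only without Carlos-labelled replicate 3 (0.05). The cause of these changes was not tested, other than fewer libraries or genes by construction.

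The small number of replicates per label, vines that the labels do not identify and shared reads limit every direction given. So does the disagreement between the label differences at maturity and those at the earlier stages.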

Other observations

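VIT_06s0004g05400, VIT_06s0004g05330 and VIT_06s0004g05320 carry identifiers with a shared stem, and each was near 0 under the Noble label and between 43.2 and 339 CPM in the libraries labelled Carlos.

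Low counts in otherwise empty genes fell mainly in 1 library. There were 4 genes at 10 CPM or more in every Carlos-labelled library and at 0 in Noble-labelled replicates 1 and 2. All 4 had counts in Noble-labelled replicate 3, up to 68. The same search gave 1 gene, with 2 counts, for Noble-labelled replicate 1, 1 gene, with 1 count, for Carlos-labelled replicate 2, and 0 genes for the other 3 libraries. The source of these counts was not tested.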
